A study of Mus musculus with 6 samples.

Results

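The cytosolic ribosomal protein genes encode the proteins of the large (60S) and small (40S) ribosomal subunits. They were taken here as every probe whose annotated gene symbol is Rpl or Rps followed by a number (with an optional letter and digit), or is Rplp0, Rplp1, Rplp2 or Rpsa, leaving out the Rps6k kinases and pseudogenes. The rule found 82 probes of 55 genes, 37 of the 60S and 18 of the 40S subunit, among 46611 probes of 17711 named genes with a signal. Of these, 66 probes of 50 genes (34 of the 60S and 16 of the 40S subunit) passed the detection filter, a detection p below 0.05 on 3 or more arrays of 6, and entered the tests, among 14420 such probes in all.

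Each 80S ribosome carries single copies of most of these proteins, so their production has to stay balanced, and surplus ribosomal protein that finds no partner is degraded. Their mRNAs are among the most abundant of a cell and begin with a run of pyrimidines, the 5′ terminal oligopyrimidine (TOP) motif, through which mTORC1 sets how strongly they are translated, while transcript levels often change little. In skeletal muscle, ribosome content sets much of the capacity for protein synthesis, and fasting lowers translation of TOP mRNAs.

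RNA came from the quadriceps femoris, a thigh muscle, of C57BL/6 mice carrying a RORalpha1delDE transgene (3 arrays) and of wild-type (WT) C57BL/6 mice (3 arrays). The transgene holds human RORalpha1, a nuclear receptor, cut short so that it lacks the E region and some of the hinge, and the human skeletal alpha-actin promoter restricts it to skeletal muscle. All mice were kept on 12 h of light and 12 h of dark with a diet of 4.6% fat and were fasted overnight before death in the morning. The mice's age and sex are not given in the sources used here, nor is the number of transgenic lines or whether each array holds RNA of a separate mouse. The WT arrays occupy the first positions of 1 chip and the RORalpha1delDE arrays the last, so position and genotype cannot be told apart.

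Between 13979 and 14887 probes were detected per array, with median signals of 154.5 to 174.9. Between arrays 1 and 2 of each genotype, 0 of 5236 bright probes differed beyond 2-fold, and their differences at 2 probes of the same gene were nearly unrelated (r = 0.0316 for RORalpha1delDE and 0.0341 for WT across 525 genes). The same measure between array 3 and arrays 1 or 2 of its genotype gave r of 0.703 to 0.764 and 55 to 101 probes past 2-fold. Arrays 1 and 2 were therefore averaged and counted as 1 sample, leaving 2 samples a genotype, and every standard error (SE) below is that of a difference of 2 samples against 2. Acta1, the main actin of skeletal muscle, stood at 15.61, 15.60 and 15.69 on the RORalpha1delDE arrays and at 15.63, 15.60 and 15.58 on the WT arrays (normalised log2 intensity, the scale of all levels below). RORalpha1delDE array 3 stood apart in slow-fibre transcripts: Tnni1, slow skeletal troponin I, read 11.05, 10.98 and 5.40 on the RORalpha1delDE arrays and 10.70, 10.65 and 10.84 on the WT arrays. Mouse Rora read 11.95, 12.12 and 12.54 on the RORalpha1delDE arrays and 12.19, 12.11 and 12.03 on the WT arrays (difference 0.20 ± 0.22 SE, adjusted p = 0.835), and whether its probe also reads the human transgene is not stated. In bulk muscle, fewer cells of a type and less RNA per cell cannot be told apart.

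The members were chosen by symbol, and the bases around their start sites were read afterwards for pyrimidine runs. RefSeq promoter windows of build GRCm38.p6 were available for 44 of the 55 genes (55 windows, since some genes have several annotated starts). Each window below gives the 20 bases before and the 20 bases from the annotated start, 5′ to 3′ on the gene's strand, with the pentamer CTTTC in capitals. The first 4 are shown because they hold it near the start, the next 2 because Rpl4 and Rpl7l1 had the highest differences between genotypes, and the last because Rpl3l is the striated-muscle member.
Rpl38, chr11:114668560-114668599, plus strand: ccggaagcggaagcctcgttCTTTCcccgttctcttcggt
Rpl28, chr7:4792945-4792984, plus strand: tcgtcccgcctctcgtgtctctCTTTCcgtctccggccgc
Rpl35, chr2:39005112-39005151, minus strand: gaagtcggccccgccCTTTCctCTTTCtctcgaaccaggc
Rps27, chr3:90213629-90213668, minus strand: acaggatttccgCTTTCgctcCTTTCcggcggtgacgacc
Rpl4, chr9:64173367-64173406, plus strand: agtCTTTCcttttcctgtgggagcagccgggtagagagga
Rpl7l1, chr17:46782637-46782676, minus strand: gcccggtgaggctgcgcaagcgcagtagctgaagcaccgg
Rpl3l, chr17:24727806-24727845, plus strand: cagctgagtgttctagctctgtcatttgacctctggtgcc

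In the Rpl38 window CTTTC begins exactly at the annotated start. The pentamer, searched on the gene's strand, lay in 13 of the 55 windows (23.6%), so most windows lack it, against 388 of 8811 windows (4.4%) over all genes with a kept probe. A run of at least 8 pyrimidines lay in 38.2% of the ribosomal protein windows, against 15.4% of all windows. Both searches covered bases before and after the start, so a match need not lie in the transcript. The first CTTTC began at position -17 in Rpl4 and at 11 in Rpl27a. These shares are therefore not shares of TOP starts. In the whole window of 250 bases before and 50 after the start, searched on both strands, CCGGAAG, letters of the ETS family motif, lay in 30.9% of the ribosomal protein windows, against 17.3% of all. AAGATGGC, letters of the YY1 motif, lay in 14.5% of them, against 4.68% of all. CTTTC overlapped neither motif in any ribosomal protein window, nor did these motifs overlap each other. The Rpl3l start above has no CTTTC, and its longest run of pyrimidines is 5 bases. The Rpl7l1 start has none either, with a longest run of 3 bases. These matches describe letters in a window and show no binding.

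No ribosomal protein transcript passed the test between genotypes. At an adjusted p under 0.05, 0 of the 66 probes were called, beside a background of 1 of 14420 kept probes (0.00693%). The probe called was for Ucp1, the brown fat uncoupling protein, which was detected on no RORalpha1delDE array and was at least 97.7-fold lower there than on the WT arrays (adjusted p = 0.00103). Without RORalpha1delDE array 3, which leaves that genotype 1 averaged sample and takes the spread from the WT samples alone, the background became 9 probes. At an unadjusted p under 0.05, 3 of the 66 probes (4.55%) were counted, all higher in RORalpha1delDE, beside 1102 of all kept probes (7.64%, of which 3.49% higher and 4.15% lower). With the 6 arrays as separate samples, 0 of 66 probes were called, beside 0.374% of all, and 5 had an unadjusted p under 0.05 (7.58%), beside 15% of all.

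Across the 50 genes, each read by its brightest kept probe, the median difference (RORalpha1delDE minus WT) was 0.04 on the log2 scale, the same as over the 8397 genes measured (0.04). The middle 50% of the ribosomal protein genes lay between -0.01 and 0.10. Their median absolute difference was 0.066, against 0.174 over all genes measured. A difference of at least 1.25-fold in either direction was reached by 2 of the 50 genes (4%), against 24.3% of all genes measured. Counted by probe, 6 of the 66 ribosomal protein probes (9.09%) reached it, against 25.8% of all kept probes. Among genes with a mean of at least 12, where signals were bright, the median absolute difference was 0.046 over 34 ribosomal protein genes and 0.121 over 780 genes in all.

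**Figure D1:**
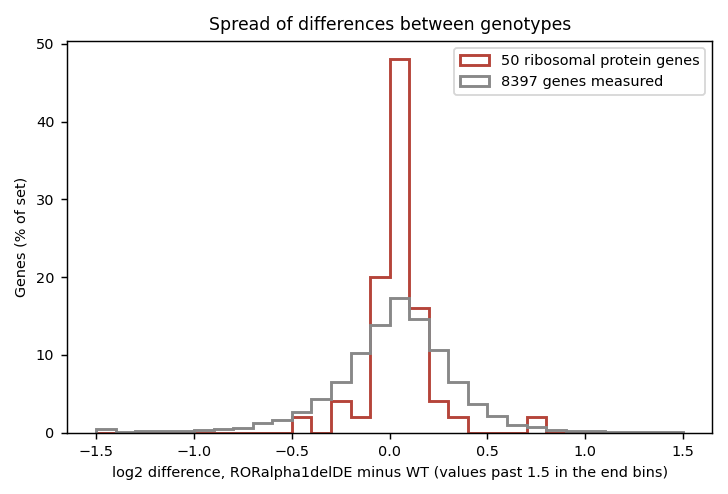
Histogram of the log2 difference between genotypes (horizontal, RORalpha1delDE minus WT, bins of 0.1) as a percentage of each set (vertical), for 50 ribosomal protein genes and all 8397 genes measured. The ribosomal protein genes gather around their median of 0.04, and their extremes are Rps13 at -0.49 and Rpl4 at 0.72.

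The 34 genes of the 60S subunit had a median difference of 0.06, with 24 above 0, and the 16 genes of the 40S subunit had a median of 0.03, with 12 above 0; this difference between subunits was not tested. In all, 36 of 50 genes (72%) were above 0, beside 57.5% of all genes read the same way and 52.8% of all kept probes. Median centring in place of quantile normalisation moved the members and all genes together: 18 of 50 members (36%) and 44.1% of all genes were then above 0, with medians of -0.03 for both. Without RORalpha1delDE array 3 the members' median moved while that of all genes stayed at 0.04, with 20 of 50 (40%) and 56.9% above 0 and a member median of -0.03. Without WT array 3, 42 of 50 members (84%) and 54.4% of all genes were above 0.

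The 95% intervals describe how large a difference between these samples could have been. Their spread may be technical, so they set no bound on a change across mice. The 95% interval of the difference lay inside 2-fold in either direction for 49 of the 50 genes, beside 84.3% of all genes and 83.3% of all kept probes, and inside 1.5-fold for 37 of them (74%), beside 29.1% of all genes and 26.4% of all kept probes. For the 34 genes with a mean of at least 12, all 34 intervals lay inside 2-fold, near the 94% of all kept probes that bright, and 31 (91.2%) inside 1.5-fold, beside 51.2%. Leaving out array 3 of a genotype leaves it 1 averaged sample, so the spread then comes from the other genotype alone with 1 residual degree of freedom, and wider intervals follow from that design. Without array 3 of either genotype, the share of intervals inside 1.5-fold was far smaller, for the ribosomal protein genes and for all kept probes alike. A typical gene had an SE of 0.18.

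**Figure D2:**
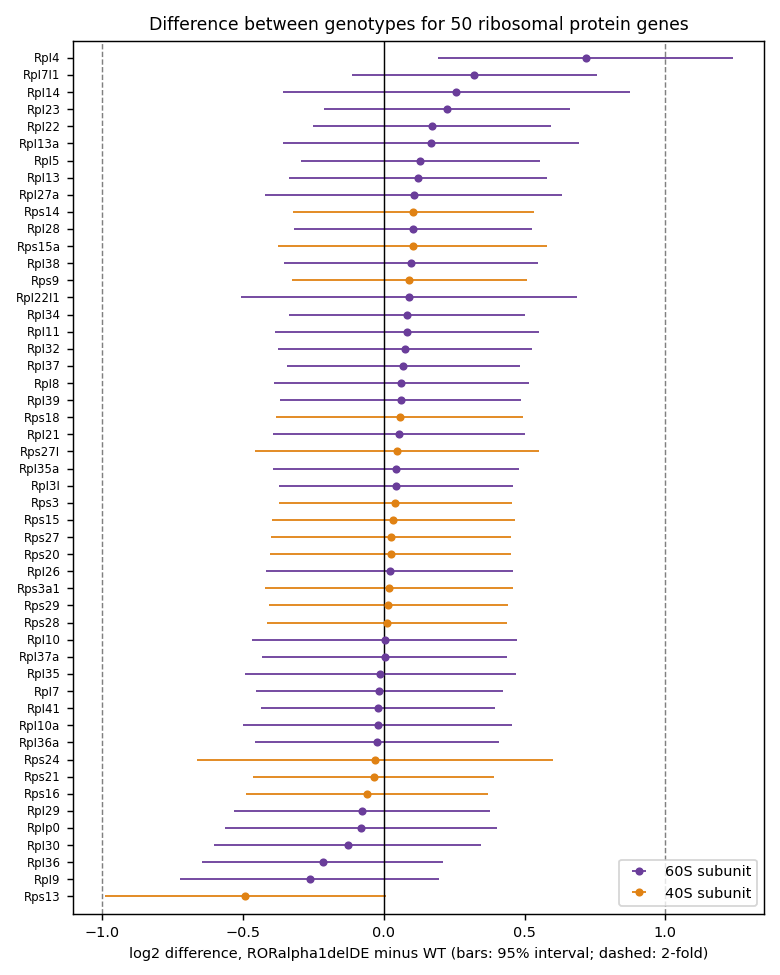
Log2 difference between genotypes (horizontal, RORalpha1delDE minus WT) of each of 50 ribosomal protein genes, ordered by value, with its 95% interval as a bar; purple marks the 60S and orange the 40S subunit, and dashed lines mark 2-fold. The interval of Rpl4, from 0.19 to 1.24, is the one that reaches past 2-fold, and all the other intervals include 0.

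The highest difference belonged to Rpl4, a 60S protein that lines the tunnel through which the new peptide leaves. Its probe read 5.80, 6.78 and 6.64 on the RORalpha1delDE arrays and 5.54, 5.66 and 5.89 on the WT arrays. RORalpha1delDE array 1 lay below the highest WT array, and the probe was close to background, detected on 2 of the RORalpha1delDE arrays and 1 of the WT arrays. The difference was 0.72 ± 0.21 (SE), with an adjusted p of 0.622. It was 0.47 without RORalpha1delDE array 2, 0.97 without RORalpha1delDE array 1 and 0.27 on signals with no background correction. The lowest difference belonged to Rps13, a 40S protein, at 6.13, 5.76 and 5.55 on the RORalpha1delDE arrays and 5.84, 6.55 and 6.28 on the WT arrays. These arrays overlapped, the probe was detected on 1 RORalpha1delDE array and on the 3 WT arrays, and the difference was -0.49 ± 0.20 (adjusted p = 0.651). Rpl14, a 60S protein, was also dim, detected on 3 of the 6 arrays, with a difference of 0.26 ± 0.25 that was 0.00055 without RORalpha1delDE array 3 and 0.060 without WT array 3.

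Rpl7l1, a relative of Rpl7 whose yeast counterpart acts in assembly of the 60S subunit, had the highest difference among genes detected on all arrays. It read 9.91, 9.99 and 9.75 on the RORalpha1delDE arrays and 9.49, 9.55 and 9.54 on the WT arrays. Every RORalpha1delDE array was above every WT array, but the difference of 0.32 ± 0.18 did not pass the test (adjusted p = 0.708). Its other 2 kept probes, both dimmer, gave 0.05 and 0.16.

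Among all 66 probes, the 3 RORalpha1delDE arrays lay wholly above the 3 WT arrays for 6 (9.09%, beside 12.1% of all kept probes) and wholly below for 3 (4.55%, beside 9.76%). The 6 higher ones were the brightest probes of Rpl7l1, Rpl22, Rpl23, Rpl28 and Rps9 and a second probe of Rps9. Rpl23, a 60S protein at the face that meets the small subunit, read 14.85, 14.80 and 15.02 on the RORalpha1delDE arrays and 14.64, 14.71 and 14.72 on the WT arrays, a difference of 0.22 ± 0.18. Rpl22, which binds RNA at the outer face of the 60S subunit, read 11.12, 11.36 and 11.17 on the RORalpha1delDE arrays and 11.10, 11.07 and 10.98 on the WT arrays, a difference of 0.17 ± 0.17. In both genes the gap between the nearest arrays of the genotypes was smaller than the spread within RORalpha1delDE.

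The 3 lower ones were Rpl36 and a second probe each of Rpl5 and Rpl10a. Rpl36, a 60S protein, read 11.26, 11.11 and 11.15 on the RORalpha1delDE arrays and 11.32, 11.30 and 11.47 on the WT arrays, a difference of -0.22 ± 0.18 (adjusted p = 0.77). Rpl9, also of the 60S subunit, had a similar difference of -0.26 ± 0.19, but its arrays overlapped, at 14.87, 14.77 and 14.64 for RORalpha1delDE and 14.86, 14.90 and 15.10 for WT.

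**Figure D3:**
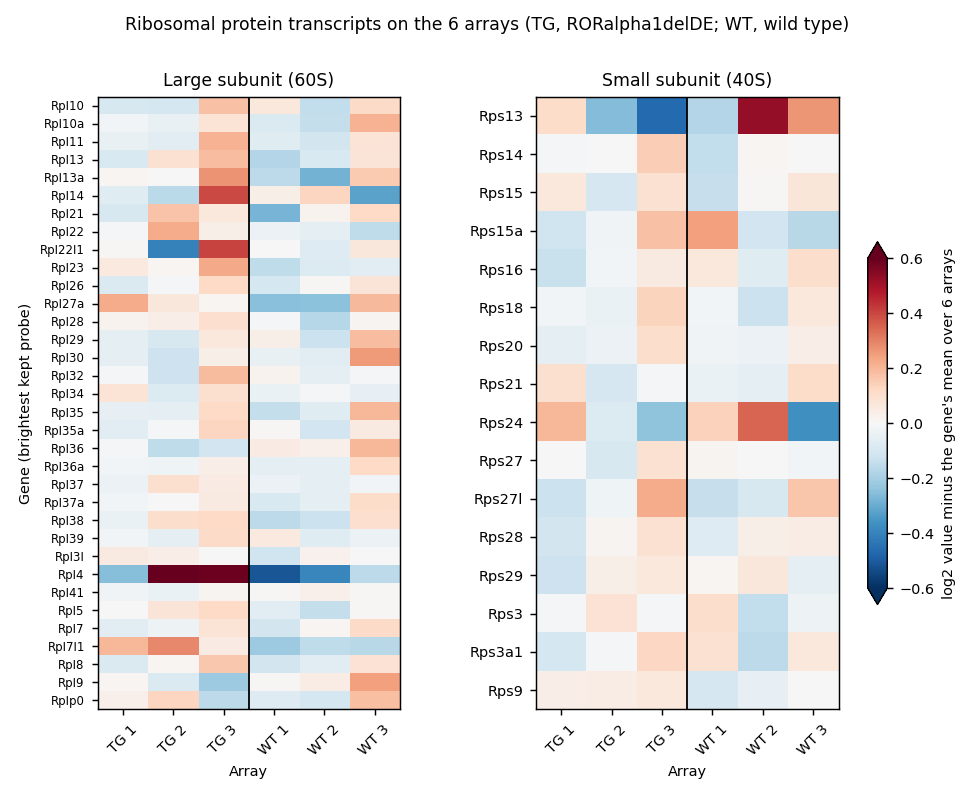
Heat map of the normalised log2 value of each ribosomal protein gene (rows) on each array (columns) minus the gene's mean over the 6 arrays, with RORalpha1delDE (TG) left of WT in each panel and colours limited to 0.6 either way. Most rows stay pale, the dim genes Rpl4 and Rps13 have the strongest colours, and array 3 is on the whole redder than arrays 1 and 2 in both genotypes.

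Rpl3l, the form of Rpl3 made in heart and skeletal muscle, was not called. It read 15.41, 15.40 and 15.36 on the RORalpha1delDE arrays and 15.24, 15.39 and 15.36 on the WT arrays. The arrays overlapped, and the difference was 0.04 ± 0.17 with a 95% interval of -0.37 to 0.46. Rpl3 itself was not analysed here.

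The other genes with a paralog were likewise uncalled. Rpl22l1, the paralog of Rpl22, varied within RORalpha1delDE, at 7.60, 7.18 and 7.996 there and 7.59, 7.51 and 7.65 on the WT arrays, a difference of 0.09 ± 0.24. Rpl7, the paralog of Rpl7l1 in mature ribosomes, had a difference of -0.02 ± 0.18. Rps27 had 0.03 ± 0.17, and Rps27l, its paralog and a p53 target in human cells, had 0.05 ± 0.21. Rpl39, a small protein at the exit tunnel, had 0.06 ± 0.17, while its testis paralog Rpl39l was detected on none of the arrays. Rpl10, which joins the 60S subunit late in its assembly, read 0.0033 ± 0.19.

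Members with roles outside the ribosome were not called either. Rpl5 and Rpl11, which bind Mdm2 together with 5S ribosomal RNA, had differences of 0.13 ± 0.17 and 0.08 ± 0.19 by their brightest probes. Rpl26, which binds p53 mRNA in human cells, had 0.02 ± 0.18, and Rpl13a, part of a complex that silences inflammatory mRNAs in human myeloid cells, had 0.17 ± 0.22. Rps3, which also acts in DNA repair, had 0.04 ± 0.17. Rpl38, needed in mouse embryos for translation of Hox mRNAs, had 0.10 ± 0.19. Rplp0, the base of the 60S stalk, had -0.08 ± 0.20. None of their arrays separated by genotype except those of the Rpl5 second probe described next.

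Probes of the same gene did not always give the same value. Rpl10a, the protein of the mobile 60S stalk by which the spent tRNA leaves, had a bright probe at -0.02 ± 0.20. Its second probe (ILMN_1225260) read 11.45, 11.22 and 11.48 on the RORalpha1delDE arrays and 11.69, 11.77 and 11.89 on the WT arrays, a difference of -0.40 ± 0.18 (adjusted p = 0.661). There the arrays did not overlap, whereas on the brighter probe they did. Rpl5 gave 0.13 by its brighter probe and -0.30 ± 0.19 by its second (ILMN_1218708), at 12.13, 12.04 and 12.19 on the RORalpha1delDE arrays and 12.24, 12.39 and 12.57 on the WT arrays. Rps20, a protein of the 40S head, gave 0.02 by its brightest probe and -0.36 ± 0.19 by its second (ILMN_1255034), at 14.06, 13.75 and 13.98 on the RORalpha1delDE arrays and 14.05, 14.29 and 14.44 on the WT arrays. The annotation gives the same transcript for both probes of each of these genes.

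In Rpl27a, a 60S protein, and Rps24, a 40S protein mutated in some human bone marrow failure, the second probe was the higher one. The Rpl27a probes gave 0.11 ± 0.22 and, for the dim one (ILMN_1221403), 0.71 ± 0.23 (adjusted p = 0.638), at 6.27, 6.06 and 6.73 on the RORalpha1delDE arrays and 5.33, 6.16 and 5.73 on the WT arrays. The Rps24 probes gave -0.03 ± 0.26 and, for the dim one (ILMN_2625060), 0.62 ± 0.22 (adjusted p = 0.645), at 5.79, 6.45 and 6.09 on the RORalpha1delDE arrays and 5.82, 5.63 and 5.24 on the WT arrays. The arrays overlapped for both dim probes. These 2 and the Rpl4 probe were the 3 with an unadjusted p under 0.05, and each was detected on 1 of the 3 WT arrays. By contrast, the 5 bright probes of Rps9, a 40S protein, ran from -0.04 to 0.12, those of Rps3 gave 0.04 and 0.06, and those of Rpl21, a 60S protein, ran from -0.06 to 0.05. Ribosomal protein genes have many processed pseudogenes, and whether a probe also reads such copies was not tested.

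**Figure D4:**
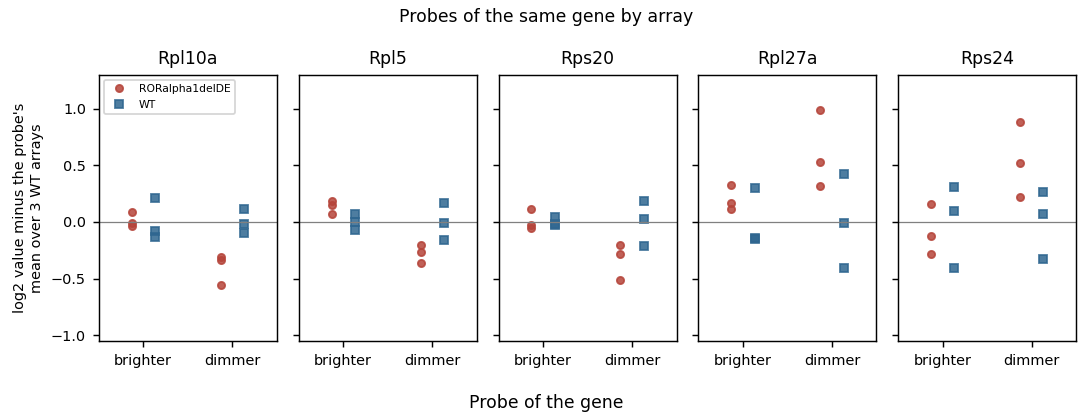
Log2 value of each array minus the probe's mean over the 3 WT arrays (vertical), for the brightest and the second kept probe of 5 genes (horizontal); circles are RORalpha1delDE and squares WT arrays. The second probes of Rpl10a, Rpl5 and Rps20 lie lower in RORalpha1delDE and those of Rpl27a and Rps24 higher. With arrays 1 and 2 averaged as 1 sample, the differences of the brighter probes lie between -0.03 and 0.13. With the arrays taken singly, as drawn, they are 0.20 for Rpl27a and -0.08 for Rps24. Single arrays of these brighter Rps24 and Rpl27a probes lie as far from 0 as those of some second probes.

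After quantile normalisation, array 3 differed from arrays 1 and 2 in the same direction in both genotypes. Over the 50 genes, array 3 was higher than the mean of arrays 1 and 2 by a median of 0.13 in RORalpha1delDE and 0.11 in WT (log2), against 0.0059 and 0.021 over all kept probes. It was higher for 39 of 50 genes in RORalpha1delDE (beside 51.5% of all genes and 50.9% of all kept probes), for 40 of 50 in WT (beside 49.4% and 52.3%) and for 32 of 50 in both (64%, beside 27.4% and 28.3%). With median centring these counts were 27 of 50 in RORalpha1delDE and 22 of 50 in WT. Under that scaling the median over all kept probes was itself below 0, at -0.062 in RORalpha1delDE and -0.183 in WT. After quantile normalisation, the size of a gene's shift in RORalpha1delDE was nearly unrelated to that in WT (r = 0.0615 over the 50 genes). Rps27l was among the clearest of the bright genes, at 13.89, 13.99 and 14.24 on RORalpha1delDE arrays 1 to 3 and 13.88, 13.92 and 14.19 on WT arrays 1 to 3.

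The shift moved with the scaling. Median centring gave the 50 genes medians of 0.013 in RORalpha1delDE and -0.019 in WT, where all kept probes stood at -0.062 and -0.183, so the ribosomal protein genes still stood above all kept probes on array 3. The authors' log2 values gave 0.094 in RORalpha1delDE and 0.060 in WT, where all kept probes stood at -0.0015 and -0.044. Of the 3 arrays of its genotype, array 3 also had the fewest detected probes, 13979 in RORalpha1delDE and 14271 in WT, and the lowest median signal, 154.5 in RORalpha1delDE and 168.2 in WT. Relative to arrays 1 and 2, the median of the 9 slow-fibre markers measured, of 10 listed, on array 3 was -4.05 in RORalpha1delDE and -0.11 in WT, and their summed intensity ran from 21774 to 142577 in RORalpha1delDE and from 94399 to 103738 in WT. Adipocyte markers, 3 measured of 8 listed, were higher on array 3 in both genotypes, by a median of 1.82 in RORalpha1delDE and 0.85 in WT, with summed intensities of 935 to 3327 in RORalpha1delDE and 3348 to 5231 in WT. Macrophage markers (5 measured of 10) gave 0.89 in RORalpha1delDE and -0.38 in WT, and fibroblast and matrix markers (7 of 8) gave 0.24 and -0.58. The part of depth, signal and these markers in the shift was not tested.

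**Figure D5:**
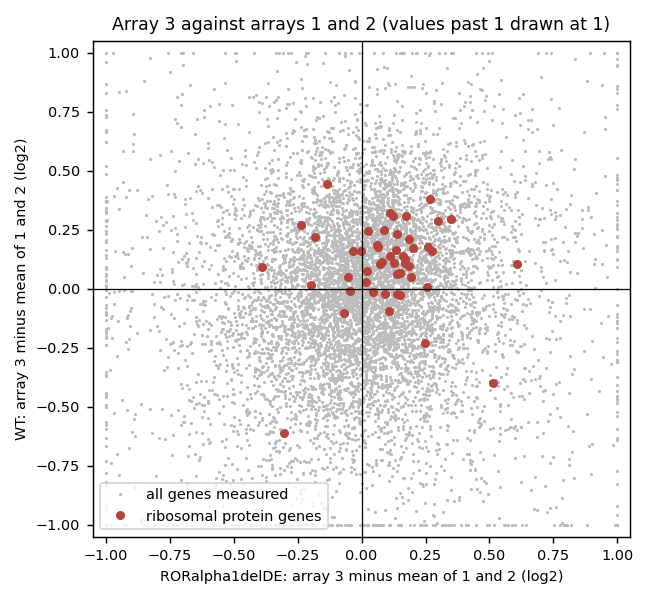
Array 3 minus the mean of arrays 1 and 2 (log2) in RORalpha1delDE (horizontal) and WT (vertical), for 50 ribosomal protein genes (red) and all 8397 genes measured (grey), with values past 1 drawn at 1. Of the ribosomal protein genes, 32 of 50 lie at the upper right, where array 3 is higher in both genotypes. Across these 50 genes the shifts in RORalpha1delDE and WT were nearly unrelated in size (r = 0.0615).

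Genes that act with the ribosome were read from lists. For comparison with each list's count above 0, 57.5% of all genes measured were above 0, with a median of 0.04. Fau, the 40S protein made as a fusion with a ubiquitin-like domain, had a difference of 0.08 ± 0.17. Of 20 other mRNAs with TOP starts, such as elongation factors, 15 were measured, 0 were called and the median was 0.04, with 9 above 0. Eukaryotic elongation factor Eef1a1 read 12.61, 12.53 and 12.74 on the RORalpha1delDE arrays and 12.84, 12.71 and 12.58 on the WT arrays. The smallest p-values of this list belonged to the eIF3 subunit Eif3e (0.22 ± 0.20), the helicase cofactor Eif4b (0.21 ± 0.19) and the poly(A)-binding protein Pabpc1 (-0.20 ± 0.19).

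Of 38 initiation and elongation factors, 34 were measured and 0 were called, with a median of 0.07 and 24 above 0. Eif1ax, which helps the small subunit scan for the start codon, read 11.20, 11.16 and 11.48 on the RORalpha1delDE arrays and 10.66, 10.56 and 10.87 on the WT arrays. Its arrays did not overlap, and its difference of 0.59 ± 0.20 had an adjusted p of 0.638. Eif3m, an eIF3 subunit, had 0.36 ± 0.17, and Eef2k, the kinase that inhibits elongation factor 2, had 0.60 ± 0.30.

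Ribosome biogenesis factors had 0 calls among 37 measured of 44, with a median of -0.06 and 15 above 0. Wdr75, which acts on the small subunit's rRNA precursor, had -0.43 ± 0.19, while Rrp1, which acts in 60S assembly in yeast, and Pes1, of the complex that processes large-subunit rRNA, had 0.40 ± 0.19 and 0.40 ± 0.22. Among 13 measured of 18 genes of RNA polymerase I and its factors, 0 were called and the median was 0.01, with 7 above 0. The subunits Polr1c and Polr1b had 0.62 ± 0.25 and 0.29 ± 0.20, and Taf1d, of the promoter selectivity factor, had 0.32 ± 0.20. Without WT array 3, Polr1c was 0.31 and Polr1b 0.11, and without RORalpha1delDE array 3, Taf1d was 0.12.

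The list of mTORC1 and TOP mRNA regulators had 16 measured of 26, 0 calls and a median of -0.09, with 7 above 0. Eif4ebp1, which blocks the cap-binding factor eIF4E until mTORC1 phosphorylates it, read 12.93, 12.95 and 12.80 on the RORalpha1delDE arrays and 13.86, 14.01 and 13.35 on the WT arrays. Every RORalpha1delDE array was below every WT array, but the difference of -0.77 ± 0.24 did not pass the test over all probes (adjusted p = 0.631). Tia1, which binds TOP mRNAs under stress, had -0.38 ± 0.18, and Tsc1, which restrains mTORC1, had 0.42 ± 0.22. The array measures transcripts, not phosphorylation or translation.

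The remaining 16 probes gave no test. Of these, 13 were detected on none of the 6 arrays. Rpl17, Rpl39l, Rplp2, Rps19 and Rpsa had no kept probe, and the most any of their probes reached was 2 detected arrays, for Rps19, the gene most often mutated in Diamond-Blackfan anaemia. A signal that is not well above background gives only a bound.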

How the data were processed

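The authors deposited bead-averaged intensities on a linear scale, from BeadStudio 2.3.41 by the submitters' processing notes. Beside them stands a detection value, named a p-value per the file headers, which rises with signal and was read as 1 minus the p-value. The authors' second table holds log2 values. Set against the signals, it holds their log2 less an array constant and less the probe's median, so its scale, centring and direction are known, and its array medians ran from -0.023 to 0.014. How the export treated background is not stated. The intensities were displaced against the probe identifiers by 0 to 21 rows, most often 17 (39418 probes). They were matched back by differences between arrays within 0.002 on the log2 scale in Python 3.11.15, which placed 46611 of 46632 probes. Spearman's rho between signal and detection value was 0.052 to 0.062 as deposited and at least 0.99996 after matching, among probes with a detection value under 1.

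Intensities went through neqc of limma 3.58.1 in R 4.3.3, which corrects background by normexp with inferred negative controls, adds an offset of 16, normalises by quantiles and takes log2. Genotypes were compared with limma (lmFit, eBayes, two-sided, Benjamini-Hochberg over 14420 kept probes, threshold 0.05). The fit was also run on simulated data with changes larger than any among the ribosomal protein genes. That run does not measure power for differences as small as theirs. All adjusted p-values are limma's. An exact permutation test cannot go below 0.333 with 2 samples against 2, or 0.1 with 3 arrays against 3. Since no label names separate mice, the p-values and intervals cover only the spread of these samples, which may be technical. The number of arrays limits precision. Arrays of a genotype were averaged where r between probes of the same gene was under 0.1. A gene was read by its kept probe with the highest mean over the 6 arrays.

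The members, lists and tests were chosen with earlier results of these data known. Named genes were the 10 members with the largest absolute difference, members with a paralog or added role, members whose kept probes differ in sign or by over 0.5, and up to 3 genes of each list with the smallest p. Rpl28 and the second probes of Rpl10a and Rps9 are also named for arrays that did not overlap, and Eef1a1 as an example, after their values were seen. Promoter sequences are RefSeq's (GRCm38.p6), matched by symbol. Rpl3, Rpl10l, Rps4x, Rps4l, Rplp1, Rps6 and Rps27a were not analysed here.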

Additional observations from a re-analysis of the deposited data

How the results depend on the processing

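No ribosomal protein probe was called under any alternative run, including an adjusted p under 0.10, and the smallest adjusted p among the 50 genes ran from 0.215 to 1.00 over the settings (limma). Over all kept probes, calls came to 54 for 6 separate arrays, 13 when arrays of an averaged pair were a random block instead, 10 if the fit followed an intensity trend, 9 at offset 50, 8 on uncorrected signals, 7 on the authors' log2 table, 3 after median centring, and 0 where a probe had to be detected on all 6 arrays (919 at an unadjusted p under 0.05). Leaving out an array gave 1 to 9, where leaving out an array 3 leaves its genotype 1 sample, assumed to vary like the other genotype. Replicate numbers did not pair the samples (correlation of deviations 0.0616 for array 3 against arrays 1 and 2, and 0.000456, 0.0232 and 0.0616 for numbers 1, 2 and 3). A replicate block gave 1 call on averaged samples and 15 on 6 arrays, with 0 ribosomal protein probes. The largest absolute difference among members (0.72) came to 0.49 at offset 50, 0.27 on uncorrected signals, 0.29 on the authors' log2 table and 0.32 where a probe had to be detected on all 6 arrays. The median of the 40S genes turned to -0.057 with median centring. Leaving out 1 array gave medians of -0.036 to 0.044 for the 40S genes and -0.022 to 0.098 for the 60S genes. The filter for detection on all 6 arrays leaves out Ucp1, the probe called, and also Rpl4, Rps13 and Rpl14. Rpl7l1 then had the largest member difference. The cause of the other moves was not tested.

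Signs turned mostly for genes with values close to 0, and also for Tnni1 (-2.55 in the reported fit), Rora (0.20) and Rpl5 (0.13). With median centring, Rpl10 gave -0.060, Rpl11 -0.0082, Rpl21 -0.031, Rpl26 -0.037, Rpl39 -0.024, Rps20 -0.023, Rps27 -0.061, Rps27l -0.053, Rps3 -0.019 and Rps9 -0.0038. With the authors' log2 values, Rpl10 gave -0.0071, Rps27 -0.0085 and Rps27l -0.00040. With 6 separate arrays, with or without the replicate block, Rpl10 gave -0.016, Rpl10a 0.014, Rplp0 0.0041 and Rps27 -0.00094, and with a random block Rpl10 gave -0.0052. By the mean of a gene's kept probes, Rpl5 gave -0.086, Rps20 -0.17 and Rps24 0.29. Leaving out 1 array turned 16 of 53 named differences and moved another 26 by over 1.5 times with the same sign, all uncalled. It gave -0.049 to 0.24 for Rora, -0.14 to 0.086 for Rpl10, -0.076 to 0.14 for Rpl10a, -0.046 to 0.17 for Rpl11, -0.021 to 0.18 for Rpl21, -0.21 to 0.19 for Rpl22l1, -0.066 to 0.083 for Rpl26, -0.015 to 0.093 for Rpl39, -0.083 to 0.065 for Rpl7, -0.11 to 0.055 for Rplp0, -0.050 to 0.061 for Rps20, -0.34 to 0.12 for Rps24, -0.043 to 0.049 for Rps27, -0.10 to 0.19 for Rps27l, -0.023 to 0.11 for Rps3 and -2.57 to 0.25 for Tnni1. Alternatives for the array 3 shift were chosen after the data were seen.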
